A study of Rattus norvegicus with 60 samples.

Results

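The genes described here are 10 rat liver genes that make serine and asparagine, feed serine carbon into mitochondrial folate, or carry amino acids into the cell. They are Asns, Phgdh, Psat1, Psph, Shmt2, Mthfd2, Slc3a2, Slc7a5, Slc7a11 and Slc7a1. They were taken as the rows of a count table of 32883 genes whose gene name was one of these names. All 10 names were found, and all 10 genes passed the filter on low counts that left 12167 genes for testing. Phgdh, Slc7a11 and Slc7a1 were too low in vehicle livers for this filter and passed it only through PFOA livers. The set was put together with the differences between PFOA and vehicle livers in these same libraries already known. Differences of the 10 genes between PFOA and vehicle livers, between doses and between days of PFOA treatment are therefore descriptions, given with whether they were called. Only differences between days within vehicle livers are given with a p-value. Those livers are the reference of the comparisons on which the genes were chosen, so these p-values are not independent of the choice.

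Phgdh, Psat1 and Psph carry out the successive steps from the glycolytic intermediate 3-phosphoglycerate to serine. Shmt2 and Mthfd2 work in the mitochondrion, where Shmt2 splits serine into glycine and a folate-bound carbon unit and Mthfd2 oxidises that unit. Asns makes asparagine from aspartate with glutamine as the nitrogen donor. Slc3a2 is the heavy chain that holds light chains such as Slc7a5 (large neutral amino acids) and Slc7a11 (cystine in exchange for glutamate) at the cell surface, and Slc7a1 is a carrier of arginine and lysine. Most of these genes are known targets of Atf4, a transcription factor whose translation increases when uncharged tRNA accumulates or other stresses halt translation initiation. In rodent liver the enzymes of serine synthesis are known to be raised by diets low in protein.

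The study measured polyadenylated RNA by sequencing in 60 livers of male Sprague-Dawley rats, 5 animals in each of 12 groups. PFOA (perfluorooctanoic acid), a long-lived fluorinated surfactant known to activate the lipid-sensing receptor Ppara in rodent liver, was gavaged daily at 1, 5 or 15 mg/kg. Vehicle rats received water, and each dose and the vehicle was followed for 7, 14 and 28 days. All animals were singly housed, none carried a genetic modification, and each animal was 1 biological replicate. The design text gives an age of 5 to 6 weeks, while the labels give 7 to 8 weeks for the day 7 groups, 8 to 9 weeks for day 14 and 10 to 11 weeks for day 28. Animals compared across days thus differ in age as well as in days of dosing, and age and time cannot be told apart.

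The libraries held 7965497 to 24770119 counts (median 12606152). Levels are given as CPM, which are counts relative to the normalised library total. A gene was called when its adjusted p was under 0.05 by edgeR's quasi-likelihood test with Benjamini-Hochberg adjustment over the 12167 genes. Livers of 1 group differed from each other along a dominant axis that held 58.9% of the variance within groups. A score for that axis, built without the 10 genes and set so that ribosomal protein genes fall as it rises, ran from -2.33 to 1.29, and 3 libraries lay below -1.5. Mean scores differed most at 1 mg/kg, where they were 0.474 in PFOA livers and -0.605 in vehicle livers on day 14, an exact permutation p of 0.103 (0.5 adjusted over the 9 comparisons, n = 5 each; the smallest p possible is 0.00794). All 8 hepatocyte markers were tested, and their summed level was 60976 to 271631 CPM, which is the tissue the labels name. In whole liver, fewer cells of a type and less RNA per cell cannot be told apart.

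Promoter sequences are shown for Asns, whose level differed at the most doses and days, and for Slc3a2 and Slc7a1, whose windows hold a motif upstream of the start. The sequences are from RefSeq, build GRCr8, which is not the Rnor_6.0 build of the counts. Each runs 5′ to 3′ on the gene's strand and covers the 120 bases before the annotated start: chr4:36769416-36769535 (minus strand) for Asns, chr1:215039671-215039790 (minus strand) for the first of the 2 starts listed for Slc3a2, and chr12:11664368-11664487 (plus strand) for Slc7a1. Capitals mark matches to TGATGNAA, the core of the response element bound by Atf4 with C/EBP proteins, or to TGACNNNGC, the core of the antioxidant response element, on either strand.
Asns: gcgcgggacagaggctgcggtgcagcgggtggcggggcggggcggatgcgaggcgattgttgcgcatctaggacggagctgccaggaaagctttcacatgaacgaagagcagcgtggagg
Slc3a2: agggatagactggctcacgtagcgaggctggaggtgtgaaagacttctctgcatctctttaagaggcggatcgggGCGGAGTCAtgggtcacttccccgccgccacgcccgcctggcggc
Slc7a1: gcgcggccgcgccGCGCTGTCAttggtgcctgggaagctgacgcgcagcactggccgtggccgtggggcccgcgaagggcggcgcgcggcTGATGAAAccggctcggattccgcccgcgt
Over windows from 250 bases before to 50 bases after the start, TGATGNAA was found in 1 of the 11 windows of the set (Slc7a1) and in 3.98% of all 33469 windows of the table. TGACNNNGC was found in 3 of the 11 windows (Slc3a2, Slc7a1 and, after the start, Phgdh) and in 12.1% of all windows. No match overlapped another. A match is only a run of letters, and a missing match says only that these letters are not in this window.

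PFOA livers held more RNA of most of the 10 genes, and on days 14 and 28 some were called at the lowest dose. On day 7 none of the 10 was called at 1 mg/kg, 3 were called higher at 5 mg/kg and 7 at 15 mg/kg. On day 14 the counts were 3, 6 and 9, and on day 28 they were 5, 7 and 7, with 1 gene, Psph, called lower at 1 mg/kg. Of all genes tested, 0.0904%, 3.27% and 6.77% were called higher at 1, 5 and 15 mg/kg on day 7, 3.76%, 5.47% and 12.7% on day 14, and 1.85%, 5.63% and 8.89% on day 28; 1.38% were called lower at 1 mg/kg on day 28. Because the genes were chosen on these comparisons, nothing is read from the excess. For the count of 0 at 1 mg/kg on day 7, 1 of the 10 genes had an unadjusted p under 0.05 by edgeR, and DESeq2 and limma-voom called 0. Groups of 5 PFOA and 5 vehicle livers lay apart, with every PFOA liver higher, for 0, 3 and 8 of the 10 genes at 1, 5 and 15 mg/kg on day 7, for 3, 4 and 7 on day 14 and for 3, 6 and 7 on day 28. Among all genes tested this held for 0.485%, 2.38% and 5.19% on day 7, 4.52%, 3.85% and 6.78% on day 14, and 3.08%, 4.4% and 5.84% on day 28. The median log2 fold change of the 10 genes was -0.12, 0.73 and 2.42 at 1, 5 and 15 mg/kg on day 7, 1.29, 2.33 and 2.43 on day 14, and 1.69, 2.37 and 2.65 on day 28. The median over all genes tested lay between -0.03 and 0.04 in these 9 comparisons.

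**Figure D1:**
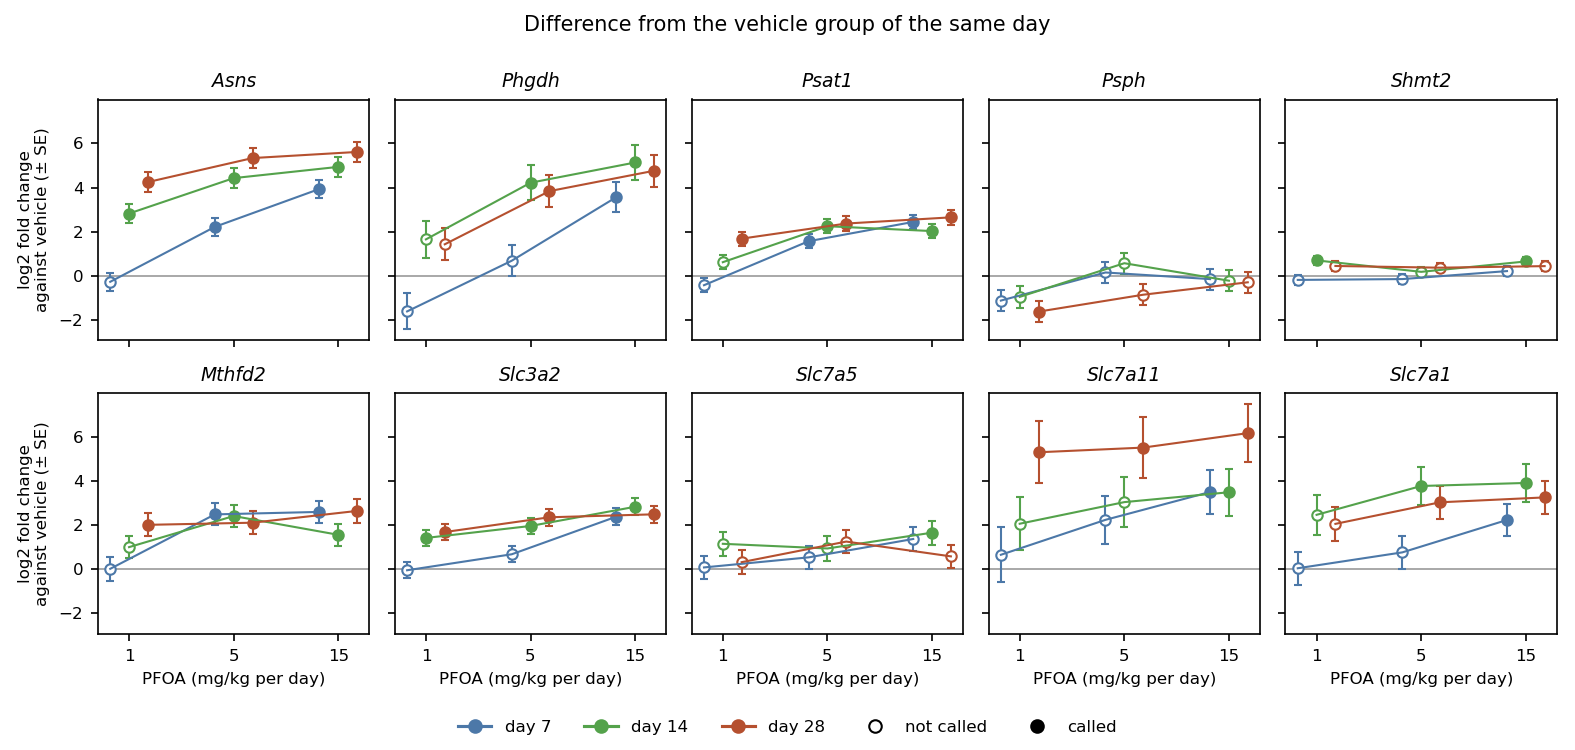
Difference of each PFOA group from the vehicle group of the same day for the 10 genes (y axis, log2 fold change ± SE; x axis, PFOA dose in mg/kg per day; colour, day; filled points, called). Asns runs from -0.28 at 1 mg/kg on day 7 to 5.61 at 15 mg/kg on day 28, while Psph runs from -1.63 to 0.57 and Shmt2 from -0.19 to 0.69; the Slc7a11 points of day 28 are fitted against vehicle libraries with no reads and are no bound.

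Asns, the asparagine synthetase, was far higher in PFOA livers from 5 mg/kg on day 7 and from 1 mg/kg on days 14 and 28. On day 7 the CPM values were 1.87, 3.75, 2.40, 2.36 and 3.90 in vehicle livers, 2.90, 3.58, 1.31, 2.19 and 1.84 at 1 mg/kg, 13.5, 14.6, 7.47, 22.5 and 9.08 at 5 mg/kg, and 57.5, 34.8, 24.6, 41.8 and 63.6 at 15 mg/kg. The 1 mg/kg livers lay among the vehicle livers, and every liver at 5 or 15 mg/kg lay above all of them. Asns was 4.64-fold higher at 5 mg/kg (log2 fold change 2.22 ± 0.40 SE) and 15.3-fold higher at 15 mg/kg (3.94 ± 0.42), and it differed by -0.28 ± 0.40 at 1 mg/kg, with a 95% interval of -1.09 to 0.53.

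On day 14 Asns stood at 0.668, 2.45, 1.28, 0.855 and 1.11 CPM in vehicle livers, 3.70, 7.78, 7.72, 10.0 and 16.0 at 1 mg/kg, 8.32, 26.0, 46.1, 32.8 and 24.4 at 5 mg/kg, and 36.1, 37.2, 23.5, 49.8 and 49.5 at 15 mg/kg. On day 28 it stood at 0.639, 0.341, 1.18, 1.09 and 1.2 CPM in vehicle livers, 20.5, 7.16, 19.1, 27.3 and 14.0 at 1 mg/kg, 35.2, 51.9, 49.97, 18.2 and 32.2 at 5 mg/kg, and 42.5, 33.05, 37.9, 39.8 and 74.1 at 15 mg/kg. On both days every PFOA liver, the 1 mg/kg livers included, lay above every vehicle liver. The log2 fold changes were 2.82 ± 0.43, 4.43 ± 0.44 and 4.94 ± 0.45 at 1, 5 and 15 mg/kg on day 14, and 4.25 ± 0.44, 5.34 ± 0.46 and 5.61 ± 0.46 on day 28. Asns was 19.0-fold higher at 1 mg/kg on day 28, 17.6 ± 7.54 CPM in PFOA livers and 0.890 ± 0.382 CPM in vehicle livers (SD, n = 5 each). All 8 Asns calls held when any single library of the comparison was left out.

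**Figure D2:**
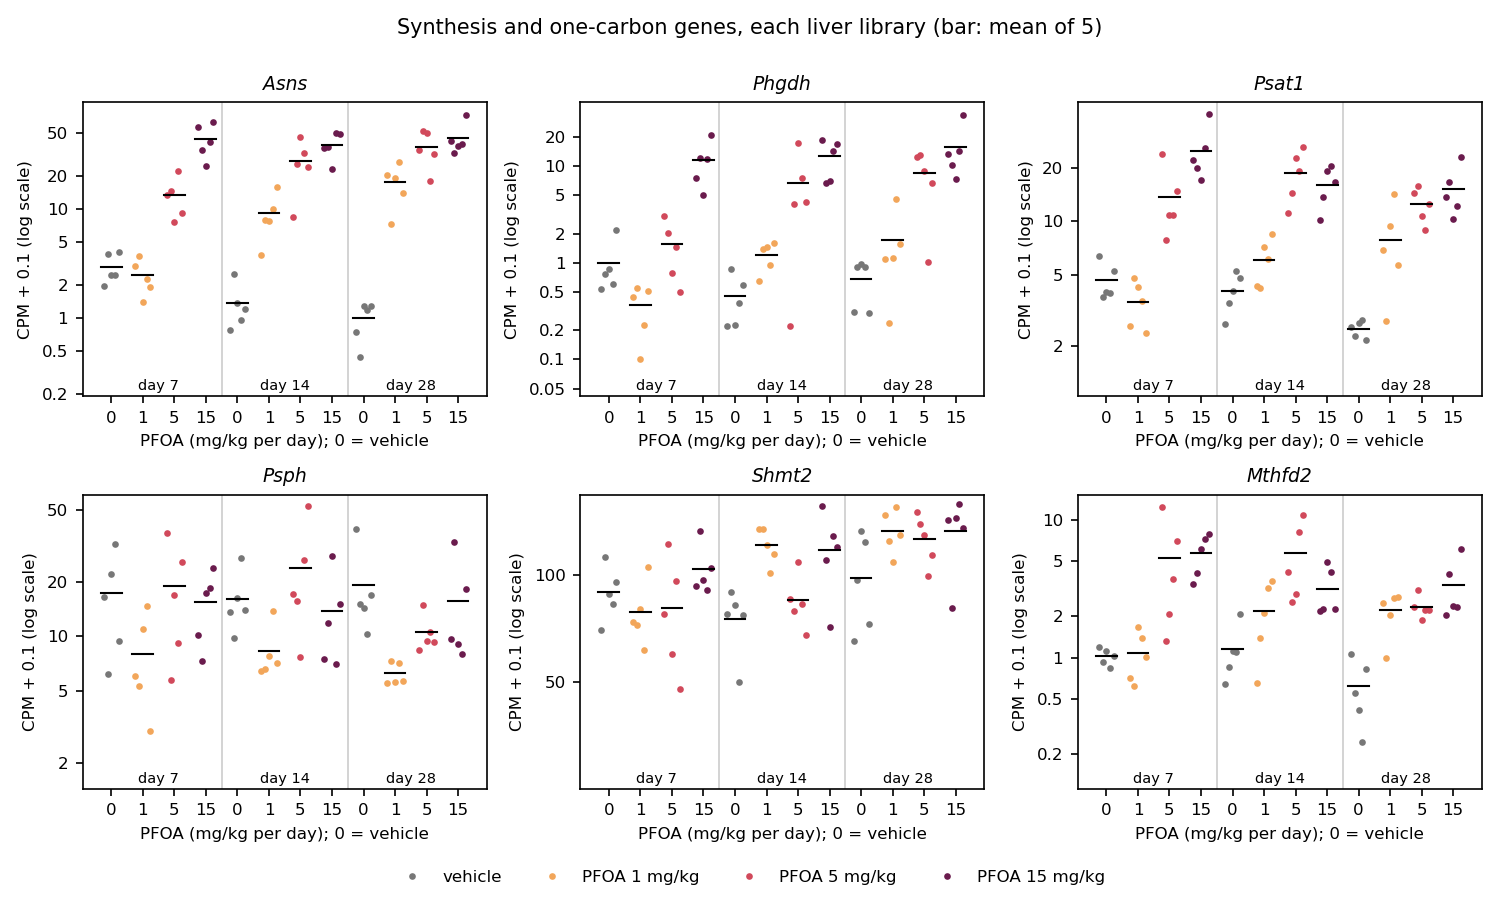
Level of the 6 biosynthetic genes in each of the 60 livers (y axis, CPM + 0.1 on a log scale; x axis, PFOA dose in mg/kg per day with 0 for vehicle, in blocks by day; points, single livers; bars, group means of 5). The Asns means climb from 5 to 15 mg/kg on each day, Psat1 averages 15.9 CPM at 15 mg/kg and 18.6 CPM at 5 mg/kg on day 14, and Psph and Shmt2 overlap between most groups.

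Phgdh, which commits 3-phosphoglycerate to serine, did not pass 2.10 CPM in any vehicle liver and passed the low-count filter only through PFOA livers. It was called higher at 15 mg/kg on day 7 and at 5 and 15 mg/kg afterwards. On day 7 it stood, at 15 mg/kg, at 7.47, 11.9, 4.98, 11.7 and 20.9 CPM, against 0.440, 0.666, 0.758, 0.496 and 2.10 CPM in vehicle livers. On day 28 the 15 mg/kg livers stood at 13.2, 10.2, 7.33, 14.3 and 33.9 CPM, against 0.213, 0.795, 0.864, 0.802 and 0.200 CPM in vehicle livers. These groups did not overlap, and the log2 fold changes were 3.56 ± 0.69 on day 7, 5.14 ± 0.79 on day 14 and 4.76 ± 0.73 on day 28. At 5 mg/kg on day 14 the livers were spread over 0.121, 3.99, 17.3, 7.38 and 4.19 CPM, against 0.121, 0.754, 0.128, 0.285 and 0.495 CPM in vehicle livers. The first of these PFOA livers was at the lowest vehicle level, and the gene was still called, at 4.22 ± 0.78. The differences at 1 mg/kg were -1.62 ± 0.82, 1.65 ± 0.83 and 1.42 ± 0.73 on days 7, 14 and 28, none of them called. All 5 Phgdh calls held without any single library.

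Psat1, the transaminase that follows, was called higher at 5 and 15 mg/kg on every day and at 1 mg/kg on day 28. On day 7 the 15 mg/kg livers stood at 21.9, 19.8, 16.9, 25.5 and 40.1 CPM, against 6.27, 3.66, 3.91, 3.85 and 5.13 CPM in vehicle livers. The 1 mg/kg livers of day 28 stood at 6.81, 2.64, 9.32, 14.2 and 5.57 CPM, against 2.45, 2.16, 2.59, 2.70 and 2.06 CPM in vehicle livers. The groups were apart in the first comparison, and in the second 1 PFOA liver lay within the vehicle range. The log2 fold changes at 1, 5 and 15 mg/kg were -0.43, 1.56 and 2.44 on day 7, 0.61, 2.24 and 2.02 on day 14, and 1.68, 2.37 and 2.65 on day 28, with SEs of 0.31 to 0.33. All 7 Psat1 calls held without any single library.

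Psph, the phosphatase that releases serine, was called higher in none of the 9 comparisons with vehicle. On day 7 it averaged 17.1 CPM in vehicle livers and 7.91, 18.9 and 15.3 CPM at 1, 5 and 15 mg/kg. The 1 mg/kg livers of day 28 held 5.43, 7.23, 5.49, 6.98 and 5.57 CPM, against 39.2, 14.9, 14.3, 10.1 and 16.7 CPM in vehicle livers. The groups did not overlap, and Psph was called lower, at -1.63 ± 0.49 on the log2 scale. Psph followed the within-group score more closely than the other 9 genes did (r = -0.89 over 60 libraries), and the score averaged 0.778 in these PFOA livers and -0.228 in the vehicle livers. With the score as a covariate the difference was -0.83 ± 0.23 and still called, and Psph was then also called lower at 1 mg/kg on day 7, at -1.04 ± 0.23. Without the covariate, the day 28 call was lost with DESeq2 size factors, with limma-voom and with no filter on low counts. It was also lost in 8 of the 10 fits that left out 1 library, with log2 fold changes of -1.71 to -1.2.

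Of the mitochondrial folate enzymes, Mthfd2 was called higher in 7 of the 9 comparisons and Shmt2 in 2. At 5 mg/kg on day 7 Mthfd2 stood at 12.4, 1.22, 1.97, 3.63 and 6.94 CPM, against 1.1, 0.833, 1.01, 0.744 and 0.933 CPM in vehicle livers. The 15 mg/kg livers of that day stood at 3.34, 4.0, 6.04, 7.23 and 7.77 CPM. Both doses lay wholly above vehicle, with log2 fold changes of 2.49 ± 0.50 and 2.61 ± 0.50. Mthfd2 averaged 3.08 ± 1.32 CPM at 15 mg/kg on day 14, against 1.06 ± 0.550 CPM in vehicle livers, and 3.29 ± 1.74 CPM on day 28, against 0.521 ± 0.326 CPM (SD, n = 5 each). The log2 fold changes there were 1.57 ± 0.50 and 2.65 ± 0.53. The day 14 call was lost without vehicle replicate 1, at 1.36. Mthfd2 was called at 1 mg/kg on day 28 at 2.02 ± 0.53, a call lost without PFOA replicate 1 or vehicle replicate 4, and 1 PFOA liver lay within the vehicle range.

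Shmt2 was abundant in all 60 livers, at 47.7 to 159 CPM, and its differences were small. On day 14 the 1 mg/kg livers stood at 135, 135, 122, 102 and 115 CPM, against 77.8, 89.5, 82.3, 49.9 and 77.0 CPM in vehicle livers. The groups did not overlap, and Shmt2 was called higher at 0.69 ± 0.21, a 1.62-fold difference. At 5 mg/kg on the same day the difference was 0.17 ± 0.21 and not called, and at 15 mg/kg it was 0.65 ± 0.21 and called with 1 PFOA liver inside the vehicle range. Shmt2 rose with the within-group score (r = 0.79), and with the score as a covariate the calls at 1 and 15 mg/kg remained, at 0.42 ± 0.13 each. The call at 1 mg/kg was lost in 7 of the 10 fits that left out 1 library, with log2 fold changes of 0.58 to 0.75, and the call at 15 mg/kg was lost without PFOA replicate 1 or vehicle replicate 4. On day 28 the differences were 0.44, 0.36 and 0.43 at 1, 5 and 15 mg/kg, with SEs of 0.21, and none was called.

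Slc3a2, the heavy chain shared by several amino acid exchangers, was called higher at 15 mg/kg on day 7 and at all 3 doses on days 14 and 28. At 15 mg/kg on day 7 it stood at 426, 240.2, 185, 298 and 430.5 CPM, against 65.7, 86.9, 32.6, 39.7 and 76.1 CPM in vehicle livers. On day 28 the 1 mg/kg livers stood at 185, 105, 234, 173 and 171 CPM, against 26.3, 45.2, 77.4, 77.5 and 41.5 CPM in vehicle livers. In neither comparison did the groups overlap. The log2 fold changes at 1, 5 and 15 mg/kg were -0.04, 0.68 and 2.39 on day 7, 1.43, 1.97 and 2.84 on day 14, and 1.69, 2.36 and 2.5 on day 28, with SEs of 0.37 to 0.39. Slc3a2 rose with the within-group score (r = 0.75), which was higher in the 1 mg/kg livers than in vehicle livers on days 14 and 28. With the score as a covariate Slc3a2 was still called there, at 0.98 ± 0.26 and 1.30 ± 0.26. The day 14 call at 1 mg/kg was lost without vehicle replicate 4, at 1.27.

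Slc7a5, a light chain for large neutral amino acids, was called only at 15 mg/kg on day 14. It stood there at 5.19, 1.83, 3.16, 5.68 and 9.68 CPM, against 1.46, 1.70, 1.02, 2.71 and 1.24 CPM in vehicle livers. The groups overlapped by 1 PFOA liver, the log2 fold change was 1.67 ± 0.55, and the call was lost in 4 of the 10 fits that left out 1 library. In the 15 mg/kg livers of day 7 it stood at 5.48, 3.72, 4.18, 7.99 and 5.56 CPM, against 3.08, 2.17, 1.39, 0.124 and 3.32 CPM in vehicle livers. These groups did not overlap, although 1.38 ± 0.53 was not called. The other 7 differences ran from 0.09 to 1.26 on the log2 scale.

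Slc7a11, the light chain for cystine, was at or near 0 in vehicle livers, with 3, 2 and 0 reads over the 5 libraries of days 7, 14 and 28. The reads at 1, 5 and 15 mg/kg were 6, 18 and 40 on day 7, 13, 23 and 42 on day 14, and 34, 36 and 54 on day 28. Every PFOA liver of day 28 held at least 1 read and none of the vehicle livers did. Relative to depth, Slc7a11 was 12.4-fold higher at 15 mg/kg on day 7, with a 95% counting interval of 3.95 to 62.7, and 15.0-fold higher on day 14, with an interval of 3.89 to 128. On day 28 it was at least 7.86-fold, 8.62-fold and 14.2-fold higher at 1, 5 and 15 mg/kg, taking 3 reads over the 5 vehicle libraries as the floor. These intervals and floors cover counting error only. Slc7a11, which passed the low-count filter only through PFOA livers, was called at 15 mg/kg on days 7 and 14 and at all 3 doses on day 28. The calls at 15 mg/kg were lost without PFOA replicate 5 on day 7 and without PFOA replicate 4 or vehicle replicate 1 on day 14. The call at 1 mg/kg on day 28 was lost without PFOA replicate 1 or vehicle replicate 1 or 5.

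Slc7a1, the carrier of cationic amino acids, was below 0.7 CPM in every vehicle liver and passed the low-count filter only through PFOA livers. At 15 mg/kg it stood at 2.30, 2.14, 0.978, 1.21 and 4.12 CPM on day 7, against 0.440, 0.666, 0.505, 0 and 0.525 CPM in vehicle livers. On day 28 it stood at 2.04, 0.672, 2.02, 1.8 and 4.89 CPM at 15 mg/kg, against 0.106, 0.114, 0.314, 0.437 and 0.133 CPM in vehicle livers. The groups did not overlap on either day. Slc7a1 was called at 15 mg/kg on days 7, 14 and 28, at 2.24 ± 0.71, 3.92 ± 0.85 and 3.27 ± 0.76, and at 5 mg/kg on days 14 and 28, at 3.78 ± 0.85 and 3.04 ± 0.76. In both 5 mg/kg groups 1 liver lay within the vehicle range. The call of day 7 was lost without PFOA replicate 5 or vehicle replicate 1 or 4, at 1.88 to 2.22.

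**Figure D3:**
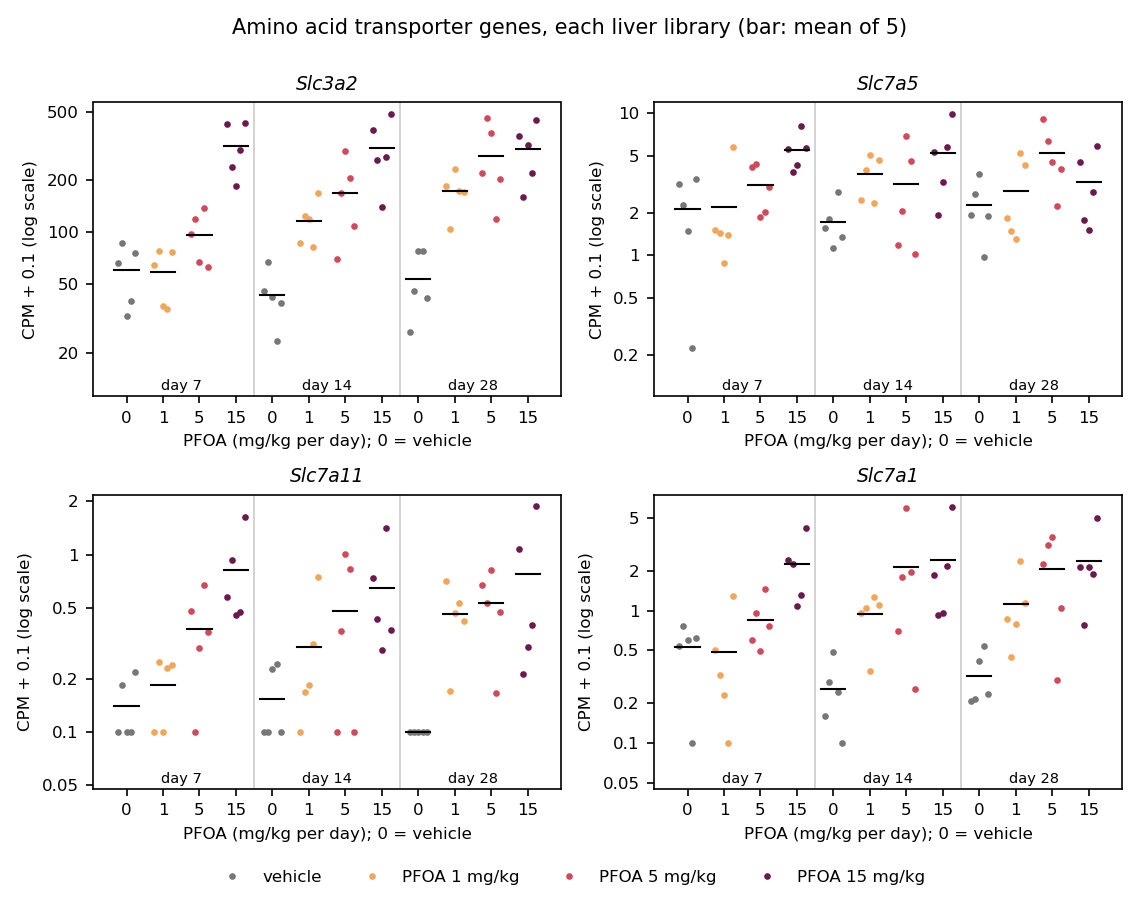
Level of the 4 transporter genes in each of the 60 livers (y axis, CPM + 0.1 on a log scale; x axis, PFOA dose in mg/kg per day with 0 for vehicle, in blocks by day; points, single livers; bars, group means of 5). Slc3a2 lies above vehicle in every 15 mg/kg liver, and Slc7a11 has no reads in the 5 vehicle livers of day 28.

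Between doses, calls fell at different steps on different days. On day 7 the 15 mg/kg livers exceeded the 5 mg/kg livers for 3 of the 10 genes called (0.164% of all genes tested were called higher), which were Asns (1.72 ± 0.38), Phgdh (2.89 ± 0.65) and Slc3a2 (1.71 ± 0.38). In the fit of the 20 day 7 libraries alone, 0 of the 10 genes were called. Also on day 7, Asns (2.49 ± 0.40), Psat1 (2.0 ± 0.32) and Mthfd2 (2.47 ± 0.50) were called higher at 5 than at 1 mg/kg, where 1.5% of all genes were. On day 14, 5 genes were called higher at 5 than at 1 mg/kg, against 6.88% of all genes: Asns (1.61 ± 0.38), Psat1 (1.63 ± 0.31), Phgdh (2.57 ± 0.66), Psph (1.53 ± 0.49) and Mthfd2 (1.41 ± 0.46). On day 14, 0 of the 10 were called between 15 and 5 mg/kg by edgeR, DESeq2 or limma-voom, with 2 at an unadjusted p under 0.05, and 0% of all genes were called higher. On day 28, 0 of the 10 were called between 5 and 1 mg/kg by edgeR or limma-voom and 1 by DESeq2, with 3 at an unadjusted p under 0.05 by edgeR; 0.222% of all genes were called higher. Between 15 and 5 mg/kg on day 28, 0 were called by the same 3 tools and 0 had an unadjusted p under 0.05, where 0.0329% of all genes were called higher. For Asns on day 28 the difference was 1.09 ± 0.37 between 5 and 1 mg/kg (95% interval 0.35 to 1.83) and 0.28 ± 0.36 between 15 and 5 mg/kg (-0.45 to 1.01).

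Vehicle levels of some of the genes were lower on later days, none of them called. The choice of the genes used these same vehicle livers as reference, so the p-values for drift are not independent of it. In vehicle livers Asns averaged 2.86 ± 0.912, 1.27 ± 0.699 and 0.890 ± 0.382 CPM on days 7, 14 and 28 (SD, n = 5 each). Day 28 vehicle livers lay wholly below those of day 7, with a log2 difference of -1.65 ± 0.43 that was not called (adjusted p 0.258, edgeR), and day 14 differed from day 7 by -1.18 ± 0.43 (adjusted p 0.942). Psat1 showed a like pattern, at 2.39 ± 0.273 CPM on day 28 and 4.57 ± 1.12 CPM on day 7, a difference of -0.93 ± 0.32 that was not called (adjusted p 0.634) with groups that did not overlap. None of the 10 genes was called for drift by edgeR, DESeq2 or limma-voom, and 1 and 2 of them had an unadjusted p under 0.05 by edgeR on days 14 and 28. Of all genes, 0% were called between days 14 and 7 and 0.0411% between days 28 and 7.

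The difference from vehicle grew over days for Asns at 1 and 5 mg/kg and for Psat1 at 1 mg/kg. The Asns difference at 1 mg/kg was 3.10 ± 0.58 log2 units larger on day 14 than on day 7 and 4.53 ± 0.59 larger on day 28, and at 5 mg/kg it was 3.12 ± 0.57 larger on day 28. Psat1 at 1 mg/kg gained 2.11 ± 0.45 between days 7 and 28. These 4 changes were called, and they are built from the comparisons on which the genes were chosen. Of all genes, 0.148% were called for the change at 1 mg/kg from day 7 to day 14, 0.0575% from day 7 to day 28, and 0.00822%, which is Asns alone, at 5 mg/kg from day 7 to day 28. At 15 mg/kg 0 of the 10 genes, and 0% of all genes, were called for either change by edgeR, with 0 and 1 of the 10 at an unadjusted p under 0.05 for days 14 and 28, and DESeq2 and limma-voom called 0. At 5 mg/kg from day 7 to day 14 the same 3 tools called 0 of the 10, with 4 at an unadjusted p under 0.05, and edgeR called 0% of all genes. The Asns change at 5 mg/kg lost its call in 8 of 20 fits that left out 1 library, at 2.91 to 2.99, and the Psat1 change in 12 of 20, at 1.76 to 2.14.

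Both the vehicle livers and the PFOA livers enter these changes. Within the PFOA livers alone, Asns was higher than on day 7 by 1.92 ± 0.40 on day 14 and 2.88 ± 0.40 on day 28 at 1 mg/kg, and by 1.48 ± 0.37 on day 28 at 5 mg/kg, all called. Slc3a2 was higher on day 28 than on day 7 by 1.57 ± 0.37 at 1 mg/kg and by 1.51 ± 0.37 at 5 mg/kg, and Phgdh by 2.43 ± 0.64 at 5 mg/kg, all called. Psat1 was called on neither day within the 1 mg/kg livers. Its vehicle level was lower on day 28 than on day 7 without being called. Of the 10 genes, 1 and 2 were called higher at 1 mg/kg on days 14 and 28 and 0 and 3 at 5 mg/kg, where 0.0986%, 0.436%, 0.0247% and 0.773% of all genes were. At 15 mg/kg 0 were called on either day, against 0% and 0.0247% of all genes. In these 3 comparisons with 0 calls, 4, 1 and 1 of the 10 genes had an unadjusted p under 0.05 by edgeR, the only tool run on them, and the comparisons were added after the data were seen. At 15 mg/kg Asns changed by -0.18 ± 0.36 and 0.03 ± 0.36 between day 7 and days 14 and 28. Set against the mean of the 3 vehicle groups instead of the vehicle group of the day, a choice made after the drift was seen, Asns differed by 0.66, 2.58 and 3.54 at 1 mg/kg on days 7, 14 and 28, and by 4.88, 4.7 and 4.91 at 15 mg/kg.

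**Figure D4:**
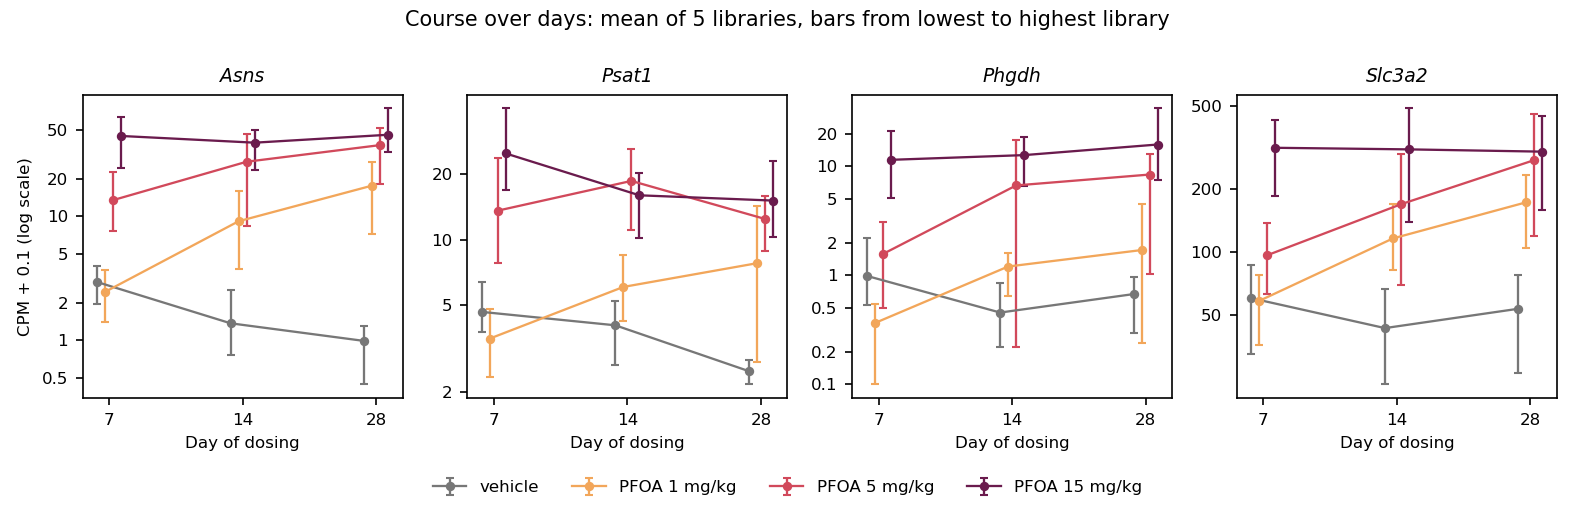
Course of Asns, Psat1, Phgdh and Slc3a2 over days (y axis, CPM + 0.1 on a log scale; x axis, day of dosing; points, means of 5 livers; bars, lowest to highest liver; colour, dose). Asns falls in vehicle livers from day 7 to day 28 without being called, climbs at 1 and 5 mg/kg, and stays between 23.5 and 74.1 CPM at 15 mg/kg.

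Livers of the same group also varied together. After the group means were removed, Asns went with Slc3a2 over the 60 livers (Pearson r = 0.752, Spearman rho = 0.762). The permutation p was 1e-05, the smallest that the permutations can give (3e-05 adjusted over the 9 relations). Asns also went with Psat1 (r = 0.471, adjusted permutation p 0.00205), Phgdh (r = 0.743, rho = 0.665), Slc7a11 (r = 0.623) and Slc7a1 (r = 0.572). Phgdh, Slc7a11 and Slc7a1 passed the low-count filter only through PFOA livers, so their relations with Asns are descriptions. Slc7a5 (r = 0.360, adjusted permutation p 0.0127) and Shmt2 (r = 0.332, adjusted permutation p 0.017) passed as well, and with the within-group score removed their r values were 0.219 and -0.0239 and did not pass. Mthfd2 (r = 0.138, p = 0.385, permutation) and Psph (r = -0.235, p = 0.101, permutation) did not pass. Without the 2 livers farthest from the median of Asns the r values were 0.720 for Slc3a2 and 0.667 for Phgdh, and with the within-group score removed they were 0.711 and 0.684. Within days 7, 14 and 28 they were 0.769, 0.766 and 0.726 for Slc3a2 and 0.680, 0.814 and 0.700 for Phgdh. For Psat1 r was 0.135 within day 7, 0.503 within day 14 and 0.722 within day 28. Once the score was removed r was 0.540 for Mthfd2 (adjusted permutation p 0.000216) and 0.394 for Psph (adjusted permutation p 0.00178), which both then passed, Psph with its sign reversed.

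Single livers stood at the top or bottom of their group for most of the genes. Replicate 5 of the 15 mg/kg group was the highest of its group for 8 of the 10 genes on day 7 and for 8 on day 28. Replicate 3 of the 5 mg/kg group of day 14 was the highest for 7 genes. At the low end, replicate 4 of the 5 mg/kg group of day 28 was the lowest for 8 genes and replicate 2 of the 1 mg/kg group of day 28 for 7.

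Beside the set, 7 lists of genes of neighbouring pathways were counted, with 129 genes of which 127 were found and 115 tested. The lists were chosen with earlier results of these data known. The genes named from them are those with the smallest p among the called ones. Their counts and p-values, here and in the next 3 paragraphs, are therefore descriptions. Of the 115, 17, 31 and 19 were called higher and 7, 11 and 8 lower at 15 mg/kg on days 7, 14 and 28. Cytosolic tRNA synthetases, which load amino acids onto tRNA, were called higher for 7, 16 and 10 of 20 tested at 15 mg/kg on days 7, 14 and 28 and lower for none. Their median log2 fold changes were 0.51, 0.82 and 0.58, where 6.77%, 12.7% and 8.89% of all genes were called higher. At 5 mg/kg 0, 3 and 8 of the 20 were called higher on the 3 days and at 1 mg/kg 0, 2 and 3. On day 7 DESeq2 called 2 at 5 mg/kg and 0 at 1 mg/kg, limma-voom called 0 at both, and 3 and 0 of the genes were higher with an unadjusted p under 0.05 by edgeR at 5 and 1 mg/kg. Yars rose by 1.00 ± 0.16 on day 7 (adjusted p 6.92e-06) and 1.14 ± 0.16 on day 28 (adjusted p 2.55e-07), and Sars by 1.03 ± 0.16 and 0.89 ± 0.16. Kars rose by 0.62 ± 0.15 on day 7 and Farsb by 1.09 ± 0.24 on day 28, all at 15 mg/kg by edgeR.

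Of 16 known Atf4 targets tested outside the set, 5, 6 and 5 were called higher at 15 mg/kg on days 7, 14 and 28. On the same days 0, 1 and 1 were called lower. Of all genes tested, 6.77%, 12.7% and 8.89% were called higher and 7.21%, 10.2% and 8.31% lower. Trib3, a pseudokinase that feeds back on Atf4, rose by 2.83 ± 0.58 on day 7 (adjusted p 0.000326, edgeR) and 3.34 ± 0.59 on day 28 (adjusted p 2.71e-05). Fgf21, a hormone of the fasted liver that Ppara also drives, rose by 4.07 ± 0.80 on day 28 (adjusted p 0.000138). Vldlr, a lipoprotein receptor, rose by 3.06 ± 0.40 and 4.37 ± 0.43 on days 7 and 28, and Eif4ebp1, a brake on translation initiation, by 1.01 ± 0.25 on day 7. At 1 mg/kg on day 28, where Asns was 19.0-fold higher, 0 of these 16 genes were called in either direction by edgeR, DESeq2 or limma-voom. At an unadjusted p under 0.05 by edgeR, 3 were higher and 1 lower there, and their median log2 fold change was 0.01. The share of all genes called higher in that comparison was 1.85%.

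Of 13 genes of asparagine, glutamate and proline metabolism, 1, 2 and 0 were called higher at 15 mg/kg on days 7, 14 and 28. On the same days 3, 4 and 3 were called lower. Of all genes tested, 6.77%, 12.7% and 8.89% were called higher and 7.21%, 10.2% and 8.31% lower. Oat, ornithine aminotransferase, fell by 1.81 ± 0.36 on day 7 and by 1.78 ± 0.36 on day 28 on the log2 scale (adjusted p 0.000214 and 0.000199, edgeR). Glul, glutamine synthetase, fell by 0.88 ± 0.26 on day 7, when Pycr3, an enzyme of proline synthesis, rose by 0.84 ± 0.28. On day 28 the liver glutaminase Gls2 fell by 1.49 ± 0.28 and Aspg, an asparaginase, by 1.39 ± 0.35. Of 18 genes of serine and glycine turnover 3, 3 and 2 were called higher and 0, 1 and 1 lower, beside the same shares of all genes. Agxt, which moves an amino group between alanine or serine and glyoxylate or pyruvate, rose by 1.03 ± 0.26 on day 7. Amt and Dld of the glycine cleavage system rose by 0.41 ± 0.13 and 0.46 ± 0.16 on day 7, and by 0.38 ± 0.13 and 0.45 ± 0.16 on day 28. Cth, which makes cysteine, fell by 1.05 ± 0.25 on day 28.

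Of 16 other folate genes 1, 2 and 0 were called higher and none lower at 15 mg/kg on days 7, 14 and 28, and Tyms, thymidylate synthase, rose by 1.03 ± 0.29 on day 7. Of 24 other amino acid transporters 0, 2 and 1 were called higher and 1, 3 and 3 lower. On these days 6.77%, 12.7% and 8.89% of all genes were called higher and 7.21%, 10.2% and 8.31% lower. Slc38a2, a sodium-coupled importer of neutral amino acids, fell by 0.92 ± 0.33 on day 7 and by 1.05 ± 0.33 on day 28 (adjusted p 0.0491 and 0.0182, edgeR). Slc16a10, a carrier of aromatic amino acids, fell by 1.43 ± 0.37 on day 28, and Slc36a4 rose by 1.46 ± 0.38. Slc7a11 is also a known target of the oxidant sensor Nrf2, and of 8 other Nrf2 targets 0, 0 and 1 were called higher and 3, 2 and 0 lower. Hmox1, Gclc and Gclm fell on day 7, by 0.80 ± 0.26, 0.82 ± 0.28 and 0.97 ± 0.34, and Gpx2 rose on day 28, by 2.8 ± 0.97. Of the counts given for the 7 lists at 15 mg/kg, 14 were 0. In these, DESeq2 called at most 2 genes, limma-voom at most 1, and at most 4 had an unadjusted p under 0.05 by edgeR.

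**Figure D5:**
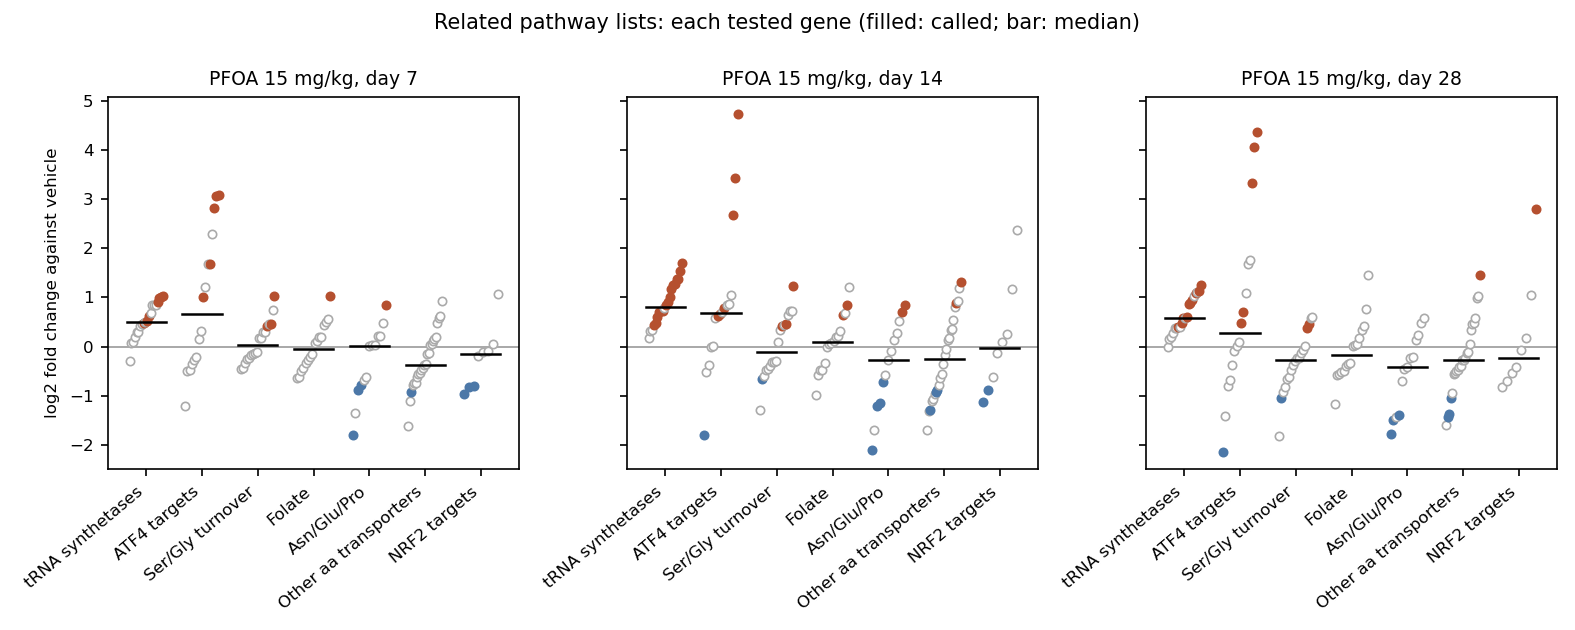
Log2 fold change of PFOA 15 mg/kg against vehicle (y axis) for each tested gene of the 7 neighbouring lists (x axis) on days 7, 14 and 28; filled points were called, red higher and blue lower, and bars are list medians. The tRNA synthetases lie mostly above 0, with medians of 0.51, 0.82 and 0.58, and the other transporters have medians below 0.

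Markers of liver cell types were counted at 15 mg/kg, where 7.21%, 10.2% and 8.31% of all genes were called lower on days 7, 14 and 28. Of the 8 hepatocyte markers 7, 5 and 5 were called lower at 15 mg/kg on days 7, 14 and 28, and none higher. Their summed level was 76751 to 141209 CPM in 15 mg/kg livers and 161795 to 271631 CPM in vehicle livers on day 7. The sums overlapped on day 14 (60976 to 132766 against 124216 to 193018 CPM) and on day 28 (99717 to 142152 against 129024 to 210194 CPM). Most of the sum is Alb, at a mean of 145786 CPM in vehicle livers of day 7. Of the 11 Kupffer cell markers tested, 2, 9 and 4 were called lower and none higher, with sums of 173 to 469 CPM in 15 mg/kg livers and 617 to 1101 CPM in vehicle livers on day 14. These sums overlapped on day 7 (224 to 509 against 425 to 845 CPM) and on day 28 (213 to 371 against 355 to 682 CPM). Of the 11 stellate and fibroblast markers 3, 3 and 2 were called lower and none higher. Of the 9 endothelial markers 0, 2 and 0 were called lower and none higher. Of the 5 cholangiocyte markers 1 was called higher on day 7, where 6.77% of all genes were. Their sums on that day were 35.9 to 50.2 CPM in 15 mg/kg livers and 24.1 to 34.7 CPM in vehicle livers. On days 14 and 28 these sums overlapped. Of 7 lymphocyte markers 1, 3 and 1 were called lower and none higher, and of 6 proliferation genes and 2 neutrophil markers none was called on any day. Of 3 erythroid markers 2, 0 and 0 were called lower and none higher, and those of day 7 were Ahsp at -3.12 and Alas2 at -3.94 on the log2 scale (adjusted p 0.000457 and 0.000861, edgeR), named after their values were seen. The part of these cells in the levels of the 10 genes was not tested.

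Over the 12 group means, the correlation of log2 CPM with Asns was 0.99 for Slc7a1, 0.97 for Slc3a2 and for Slc7a11, 0.93 for Psat1, 0.91 for Phgdh, 0.89 for Mthfd2 and 0.80 for Slc7a5, and it was 0.59 for Shmt2 and -0.05 for Psph. These 12 points share their libraries and the order of the doses, so the values are descriptions. Outside the set, the genes whose group means were most like those of Asns were Hadhb, a subunit of the mitochondrial trifunctional protein, Nipal2 and Gpat3, a glycerol phosphate acyltransferase (r = 0.98 each). Nearest to Phgdh were Unc5b, the lipid droplet coat gene Plin2 and Pmm2 (0.97 each). Nearest to Mthfd2 were Cacna2d3 (0.97) and Tp53i3 (0.96), and nearest to Slc3a2 were the tRNA synthetase gene Sars (0.99), Enc1 (0.99) and Pum3 (0.98).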

How the data were processed

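RNA was isolated from frozen liver with Qiagen RNeasy kits and made into Illumina TruSeq stranded mRNA libraries, per the labels' protocols. Per the submitters' processing notes, the authors used bcl2fastq 2.20.0.422, Trimmomatic 0.33, STAR 2.5.2b and featureCounts of Subread 1.6.0 with the Rnor_6.0 build. The annotation release and the strand setting of the counting are not given in the sources used here. The deposited values are raw counts per gene, not normalised, in 1 table of 32883 genes and 60 libraries, and 0 other columns of per-sample values were left unused. Columns were matched to samples by title, and groups came from the treatment label.

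Genes passed a low-count filter (edgeR's filterByExpr by group, minimum count 10, minimum total 15), and libraries were scaled by trimmed means (TMM). A group-means model of all 60 libraries with 48 residual degrees of freedom was fitted with edgeR's robust quasi-likelihood method, and every comparison was adjusted over all 12167 genes by Benjamini-Hochberg, with calls at an adjusted p under 0.05. SEs were derived from the fold change and its F statistic. The biological coefficient of variation was 0.388. Software was R 4.3.3, edgeR 4.0.16, limma 3.58.1, DESeq2 1.42.0, Python 3.11.15, numpy 2.4.6, scipy 1.17.1 and matplotlib 3.10.9. The procedure was also run on simulated counts for the comparison of 15 mg/kg with vehicle on day 28. The simulated livers shared no axis within groups, so that run does not cover the axis seen here. Relations within groups used log2 CPM (prior count 2) minus the group mean and 100000 permutations within groups. The within-group score averaged 500 genes with the largest loadings on the first axis. Replicate libraries differed beyond counting noise in every pair, with chi-square values of at least 17.3 per degree of freedom.

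The members and lists were chosen with earlier results of these data known. The genes named are all 10 members, the 3 smallest p-values among called genes of each neighbouring list at 15 mg/kg on days 7 and 28, and the 3 genes nearest in pattern to Asns, Phgdh, Mthfd2 and Slc3a2, of which 1 had no gene symbol and is not named. Alternatives were DESeq2 size factors, no filter, DESeq2, limma-voom, the score as a covariate, 3 low-score libraries left out, a fold threshold of 1.5, a fit per day, each library left out, and, added after the data were seen, the mean of the 3 vehicle groups as reference.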

Additional observations from a re-analysis of the deposited data

Results flagged for a closer look

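In 7 of 119 groups of 5 livers the highest liver of a member stood apart from the rest, with a gap of more than 0.71 of the group's range; chance gives about 1 in 20 groups. Among PFOA livers, Asns was at 74.1 CPM in replicate 5 of the 15 mg/kg group of day 28, where the other 4 livers held 33.05 to 42.5 CPM, and Phgdh was at 33.9 CPM in the same liver, where the others held 7.33 to 14.3 CPM. Psph was at 13.6 CPM in replicate 4 of the 1 mg/kg group of day 14, with the others at 6.30 to 7.72 CPM. Slc7a5 was at 5.65 CPM in replicate 5 of the 1 mg/kg group of day 7, with the others at 0.784 to 1.42 CPM, and Slc7a1 was at 6.01 CPM in replicate 5 of the 15 mg/kg group of day 14, with the others at 0.831 to 2.06 CPM. Among vehicle livers, Phgdh was at 2.10 CPM in replicate 5 of day 7, with the others at 0.440 to 0.758 CPM, and Psph at 39.2 CPM in replicate 1 of day 28, with the others at 10.1 to 16.7 CPM.

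The difference between PFOA and vehicle livers itself differed between days, by edgeR's test of the change, in 4 cases. On the log2 scale Asns gained 3.10 at 1 mg/kg from day 7 to day 14, 4.53 at 1 mg/kg from day 7 to day 28 and 3.12 at 5 mg/kg from day 7 to day 28, and Psat1 gained 2.11 at 1 mg/kg from day 7 to day 28. Vehicle levels of both genes were lower on day 28 than on day 7 without being called, and the genes were chosen on the comparisons from which these changes are built.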

How the results depend on the processing

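No paired analysis was possible because the labels give no replicate numbers, and the numbers used here follow the order of the samples. Of 48 calls of members against vehicle in 90 comparisons, 37 held without each library in turn, among them all 16 at 5 mg/kg, and 11 were lost without at least 1 library. Under other settings 219 summary values kept their direction, side of the threshold or size; 26 counts moved, 12 relations weakened, 1 strengthened and 3 reversed. Depth limits Slc7a11, Phgdh and Slc7a1, which are near 0 in vehicle livers; the cause of the changes below was not tested.

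With the score as covariate, the members called numbered 1 at 1 mg/kg on day 7, 6 for 5 against 1 mg/kg on day 7 and 2 on day 28, and 2 for the change of the 1 mg/kg difference from day 7 to 14 and 0 for that at 5 mg/kg from day 7 to 28; other list genes called were 13, 46 and 56 at 1, 5 and 15 mg/kg on day 28 and 52 at 15 mg/kg on day 7. The main counts were 0, 3, 0, 1 and 1, and 4, 19, 27 and 24. Limma-voom called 0 and 1 members for the changes at 1 mg/kg to days 14 and 28 (main 1 and 2), 0 for that at 5 mg/kg to day 28 (main 1) and 2 for 5 against 1 mg/kg on day 14 (main 5). The last count was 3 in the day's fit, 3 with no filter and 3 without the low-score libraries. With DESeq2 size factors 1 member was called for the change at 1 mg/kg to day 28 (main 2), and by DESeq2 1 for 5 against 1 mg/kg on day 28 (main 0). The day 7 fit called 0 members for 15 against 5 mg/kg (main 3) and 10 list genes at 15 mg/kg (main 24), and no filter left 2 list genes at 1 mg/kg on day 28 (main 4). Against the mean of the 3 vehicle groups, chosen after the data were seen, 5 members were called at 5 mg/kg on day 7 (main 3), and list genes numbered 30, 40 and 49 at 1, 5 and 15 mg/kg on day 28 and 40 at 15 mg/kg on day 7.

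Leaving out 1 library, members called against vehicle ranged from 1 to 3, 3 to 6 at 1 mg/kg on days 14 and 28, 6 to 7 at 5 mg/kg on day 14, and 5 to 7, 6 to 9 and 7 to 8 at 15 mg/kg on days 7, 14 and 28. They ranged from 0 to 3 for 15 against 5 mg/kg on day 7, 3 to 6 and 0 to 1 for 5 against 1 mg/kg on days 14 and 28, and 1 to 2 and 0 to 1 for the changes to day 28 at 1 and 5 mg/kg. List genes called ranged from 1 to 8 at 1 mg/kg and 12 to 22 at 5 mg/kg on day 28, and 12 to 21, 33 to 48 and 20 to 34 at 15 mg/kg on days 7, 14 and 28.

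With the score removed, the relation with Asns had r = 0.540 for Mthfd2, 0.394 for Psph, -0.0239 for Shmt2 and 0.219 for Slc7a5, where the main values were 0.138, -0.235, 0.332 and 0.360. Within day 7 r was -0.180 for Mthfd2, 0.135 for Psat1, 0.359 for Shmt2, 0.427 for Slc7a1, 0.451 for Slc7a11 and 0.170 for Slc7a5. Within day 14 it was 0.503 for Psat1, 0.273 for Shmt2, 0.489 for Slc7a1 and 0.514 for Slc7a5, and within day 28 it was 0.384 for Shmt2 and 0.403 for Slc7a5. In the fits of single days Slc7a11 fell under the filter. Psph at 1 mg/kg on day 28 lost its call with DESeq2 size factors, limma-voom and no filter, Mthfd2 there with limma-voom, and Shmt2 at 1 mg/kg on day 14 with no filter, the day's fit and the mean of the vehicle groups.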
